A study of Homo sapiens with 6 samples.

Results

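YAP1 and WWTR1 (the gene of TAZ) encode the transcriptional coactivators at the end of the Hippo pathway, and 10 genes of this axis were followed here in SiHa PR cells with and without P4HA3 overexpression. The 10 were 3 nuclear effectors (YAP1, WWTR1 and TEAD1), 3 target genes of the secreted or muscle type (CCN1, CCN2 and ANKRD1), and 4 further targets that act as junction, kinase, receptor or scaffold proteins (AMOTL2, LATS2, AXL and AJUBA). Each was matched by its Ensembl identifier in the deposited count table of 60664 genes, and each passed the filter on low counts together with 15120 others. The 10 genes were chosen with the counts and fold changes of this same comparison already known, so they were in effect selected on them. The differences of these 10 genes are therefore given as sizes with errors, without p-values, and the count of genes called in the list is a description.

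SiHa is a long-established line from a human squamous carcinoma of the cervix, and PR cells are the parental cells of a line with high lymph node metastasis. The control group was 3 libraries of SiHa PR cells, and the other group was 3 libraries of SiHa PR cells made to overexpress P4HA3, an alpha subunit of the collagen prolyl 4-hydroxylase. All came from this 1 line, and the labels do not say whether the overexpressing cells were a clone or a pool, nor whether the 3 libraries of a group came from separate cultures. The p-values below therefore measure the spread between libraries, which may be technical. P4HA3 itself had 62 to 93 counts in control libraries and 44775 to 49097 with overexpression, in keeping with the library names. Neither these names nor the paper's description of its RNA-seq says whether the control cells carried an empty vector.

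In the Hippo pathway the kinases MST1 and MST2 (genes STK4 and STK3) with SAV1 activate LATS1 and LATS2, which phosphorylate YAP and TAZ and hold them in the cytoplasm. Unphosphorylated YAP and TAZ enter the nucleus, where they cannot bind DNA themselves and act through the TEAD transcription factors. Cell density, junctions, matrix stiffness and actin tension set their activity, largely through protein phosphorylation and location, which RNA counts do not measure. Several targets feed back on the pathway, among them LATS2 and AMOTL2, which restrain YAP. In epithelial tumours including cervical carcinoma, YAP is known as a driver of growth.

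Total counts ran from 21773488 to 24589095 in control libraries and from 22160298 to 24939948 with overexpression. Libraries differed in how their counts followed GC content. Spearman's rho of a library's deviation from its group with GC content ran from -0.52 to 0.45 over the 6 libraries, and that of the log2 fold change was -0.58. Both are taken over 15107 genes, which do not count as independent replicates. Each difference is therefore also given with every library's trend on GC content and transcript length removed, a step that takes out any part of a group difference that follows these properties. The labels' growth protocol describes uterine smooth muscle, whereas the source name gives SiHa cells. Smooth muscle markers summed to between 0.534 and 2.68 CPM (counts scaled to library size) over the 6 libraries. Of these DES was at 0 to 0.315 CPM and MYH11 at 0.0445 to 0.368 CPM. The 9 epithelial markers summed to 11101 to 13496 CPM, of which KRT7, KRT8, KRT17 and KRT18 gave the most. Others of the 9 were low, with KRT5 at 3 or 4 counts in every library and KRT19 at 0.623 to 1.22 CPM. ACTG2, a smooth muscle actin, was uneven, with 0, 1 and 30 counts in control replicates 1 to 3 and 40, 1 and 44 in P4HA3 overexpression replicates 1 to 3. Leukocyte markers had at most 2 counts in any library, PECAM1 of the endothelial markers was at 1.33 to 3.43 CPM with VWF, CDH5 and KDR at 0 to 2 counts, and the fibroblast markers summed to 185 to 194 CPM in control and 146 to 186 CPM in overexpressing libraries.

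To show where TEAD factors could be sought at these genes, the bases around the start sites were read from RefSeq promoter windows. Each window ran from 250 bases before to 50 after a start (GRCh38.p14). Of the 10 genes, 8 had at least 1 window, 12 windows in all. CCN1 and TEAD1 had none. The motif GGAATG, the core recognised by TEAD factors, was searched on both strands and was found in 7 of the 12 windows, from 7 genes, against 14.0% of all 35116 promoter windows of the same length. CCN2 held 3 matches, ANKRD1 held 2, and YAP1, AMOTL2, LATS2, AXL and AJUBA held 1 each, while neither window of WWTR1 held any. For AMOTL2, AXL and AJUBA the other RefSeq window held none. For AXL and AJUBA this was the window at the annotated gene start, and for AMOTL2 the window nearer to it. The match of LATS2 lay after the start, at bases 10 to 15. The AP-1 motif TGANTCA was in 1 window, that of ANKRD1 (7.71% of all windows), and no window held a CArG box, the SRF motif (1.29% of all windows). Most of these genes were listed as known YAP and TAZ targets, so a share above that of all windows is not independent evidence. A match describes these letters only, and no binding was measured here.

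The 250 bases before the start of CCN2 and ANKRD1 are shown because they hold more than 1 match, and those of AMOTL2 (at 1 of its 2 RefSeq starts) and YAP1 as a target and an effector with 1 each. They are written 5′ to 3′ on the gene's strand, with GGAATG or its complement CATTCC, and in ANKRD1 also the AP-1 match, in capitals. In CCN2 the 3 matches lay between 169 and 95 bases before the start, counted from the first base of each match in the gene's direction. In ANKRD1 they lay 220 and 128 bases before it, with the AP-1 match at 195 bases. The match of YAP1 lay at 162 bases and that of AMOTL2 at 69 bases.
CCN2 chr6:131951373-131951622 (- strand): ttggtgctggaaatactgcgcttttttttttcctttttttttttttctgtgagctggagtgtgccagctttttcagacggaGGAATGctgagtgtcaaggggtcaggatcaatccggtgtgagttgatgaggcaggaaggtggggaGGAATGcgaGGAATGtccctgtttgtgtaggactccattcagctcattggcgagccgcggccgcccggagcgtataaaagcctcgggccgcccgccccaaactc
ANKRD1 chr10:90921088-90921337 (- strand): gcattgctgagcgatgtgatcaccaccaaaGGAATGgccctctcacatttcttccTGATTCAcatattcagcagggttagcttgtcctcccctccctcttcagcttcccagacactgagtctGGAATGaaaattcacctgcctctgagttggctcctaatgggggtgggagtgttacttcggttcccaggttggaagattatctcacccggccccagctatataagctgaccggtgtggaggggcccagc
AMOTL2 chr3:134374448-134374697 (- strand): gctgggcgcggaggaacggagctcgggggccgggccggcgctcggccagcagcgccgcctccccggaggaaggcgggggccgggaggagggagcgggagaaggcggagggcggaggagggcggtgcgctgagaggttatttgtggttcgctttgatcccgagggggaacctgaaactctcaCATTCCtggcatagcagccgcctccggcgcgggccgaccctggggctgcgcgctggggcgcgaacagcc
YAP1 chr11:102110197-102110446 (+ strand): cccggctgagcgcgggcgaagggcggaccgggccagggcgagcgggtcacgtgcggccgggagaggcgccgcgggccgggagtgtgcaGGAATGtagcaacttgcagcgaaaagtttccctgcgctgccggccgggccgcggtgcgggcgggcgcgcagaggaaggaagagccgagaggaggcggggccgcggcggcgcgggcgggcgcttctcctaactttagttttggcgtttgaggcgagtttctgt

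The followed target genes had higher values in the overexpressing cells. Of the coactivators, YAP1 also had a positive log2 fold change (0.20), near the 0.26 of the target AMOTL2, but its groups overlapped. WWTR1 was at -0.06. The calls for YAP1 and WWTR1 depended on the fit, as given below. Of the 10 genes, 8 were called higher and 0 lower at an adjusted p below 0.05 (quasi-likelihood test of edgeR, Benjamini-Hochberg over all genes tested), where 9.36% of all 15130 tested genes were called higher and 11.4% lower. The 2 that were not called were YAP1 and WWTR1. In 7 of the 10 the lowest overexpressing library exceeded the highest control library, which held for 19.7% of all tested genes, and in 0 of the 10 was the order the opposite, which held for 20.4%. The median log2 fold change of the 10 was 0.35, against 0.01 over all tested genes. ANKRD1 entered the test only through its counts in the overexpressing libraries, so these figures describe the list and are not evidence for it. With the GC and length trends removed, 8 were called higher and 1, WWTR1, lower, with 10.6% and 7.94% of all genes called higher and lower, and the median was 0.38.

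The number of calls depended on the libraries. Of the 10 genes, 4 were called higher without control replicate 1 (1.49% of all genes) and 3 without control replicate 2 (1.06%). There were 4 when P4HA3 overexpression replicate 3 was left out (1.79%). Leaving out control replicate 3 gave 9 (9.08%). Leaving out P4HA3 overexpression replicate 1 gave 9 (18.3%), and replicate 2 gave 7 (5.75%). In bulk RNA, fewer cells of a type and less RNA per cell cannot be told apart. Of the 8 tested epithelial markers 4 were called lower in overexpressing cells, with E-cadherin (CDH1) at 16.5 and 9.66 CPM, and PECAM1 was lower too (2.89 and 1.40 CPM). With the trends removed 2 epithelial markers, CDH1 and KRT18, were called lower and 1, KRT7, higher (0.33), while KRT17 and CDKN2A were not called. With 1 library left out, CDH1 was called in 6 of 6 fits, KRT17 and KRT18 in 3 each and CDKN2A in 2. Their part in the differences of the 10 genes was not tested.

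**Figure D1:**
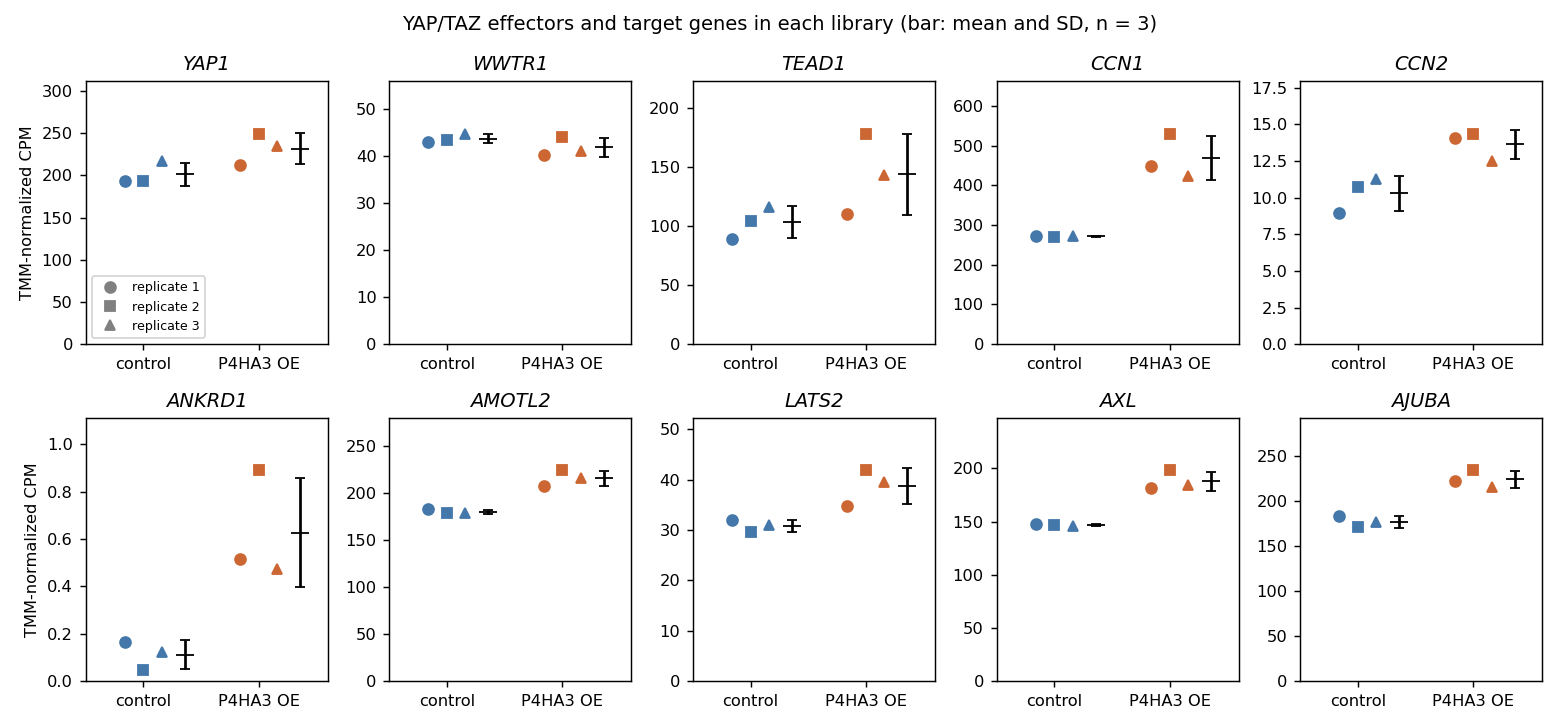
Expression of the 10 genes in TMM-normalized CPM (y axes, each from 0) in the 3 control and 3 P4HA3-overexpressing (P4HA3 OE) libraries, with symbols for the replicate number and a bar for the mean and SD of each group. P4HA3 overexpression replicate 2 was the highest overexpressing library in all 10 panels, and the groups overlap in YAP1, WWTR1 and TEAD1.

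CCN1 (ENSG00000142871, chromosome 1, 85580761 to 85584589 of GRCh38, plus strand) encodes CYR61, a secreted matricellular protein that binds integrins and is among the most used readouts of YAP activity. Its expression was 272, 269 and 273 CPM in control replicates 1 to 3 and 448, 530 and 424 CPM in P4HA3 overexpression replicates 1 to 3. The control libraries lay within a few CPM of each other and all overexpressing libraries were far above them. The means were 271 ± 1.99 and 467 ± 55.4 CPM (SD, n = 3 in each group), which differ by 0.78 on the log2 scale (standard error 0.08) or 1.72-fold, the largest of the 10 apart from ANKRD1. It was 0.84 with the trends removed and 0.68 to 0.85 with any library left out.

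CCN2 (ENSG00000118523, chromosome 6, 131948176 to 131951372, minus strand) encodes CTGF, the paralogue of CYR61 and a mediator of matrix deposition, and its promoter above holds 3 of the TEAD motifs. It was at 8.95, 10.7 and 11.2 CPM in control replicates 1 to 3 and at 14.0, 14.4 and 12.5 CPM in P4HA3 overexpression replicates 1 to 3. The groups did not overlap, but the gap between the nearest libraries was small. It differed by a log2 fold change of 0.40 (standard error 0.11), and 0.47 with the trends removed. Per kilobase of canonical transcript, CCN2 stood at 4.40 ± 0.511 CPM per kb (SD, n = 3) in control cells and CCN1 at 119 ± 0.874 CPM per kb, so the level of CCN1 was 24.9 to 31.2 times that of CCN2 in control and 32.8 to 37.9 times in overexpressing libraries.

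ANKRD1 (ENSG00000148677, chromosome 10, 90912096 to 90921087, minus strand) encodes a cardiac ankyrin repeat protein of muscle that YAP induces in many cell types. It was barely expressed, with 4, 1 and 3 counts in control replicates 1 to 3 and 12, 20 and 12 counts in P4HA3 overexpression replicates 1 to 3. All overexpressing libraries were above all control libraries at these low counts. Summed over libraries, 8 counts stood against 44, a ratio per effective library size of 5.42 with a 95% exact binomial interval of 2.52 to 13.3, which covers counting error only. The log2 fold change of the test was 2.44 (standard error 0.49). ANKRD1 was chosen with this difference known and passed the filter only through the overexpressing libraries. The interval and the error are therefore descriptions and not evidence of a difference. It was not called without control replicate 2 (2.11), nor by DESeq2. Even in overexpressing cells the level was 0.35 ± 0.128 CPM per kb (SD, n = 3), the lowest of the 10 genes.

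The 3 secreted or muscle-type targets thus all had higher values, at levels that spanned from abundant CCN1 to ANKRD1 near the limit of detection. Their exons overlap other genes only in CCN2, where 278 bases are shared with LINC01013 on the opposite strand, which had 0 or 1 counts in every library.

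AXL (ENSG00000167601, chromosome 19, 41219223 to 41261766, plus strand) encodes a receptor tyrosine kinase of the TAM family that binds GAS6 and is tied to invasion. It was at 148, 147 and 146 CPM in control replicates 1 to 3 and at 182, 198 and 184 CPM in P4HA3 overexpression replicates 1 to 3. The spread of the control libraries was 0.47% of their mean and the groups were clearly apart. The log2 fold change was 0.36 (standard error 0.05, 0.43 with the trends removed), and AXL was 1 of 3 genes of the list, with CCN1 and AJUBA, that kept the call with any library left out.

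AJUBA (ENSG00000129474, chromosome 14, 22971177 to 22982551, minus strand) encodes a LIM scaffold at cell junctions that binds LATS kinases and restrains them. Its expression was 183, 171 and 177 CPM in control replicates 1 to 3 and 222, 234 and 216 CPM in P4HA3 overexpression replicates 1 to 3. The groups did not overlap. On the log2 scale AJUBA differed by 0.34 (standard error 0.06), and 0.40 with the trends removed.

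AMOTL2 (ENSG00000114019, chromosome 3, 134355347 to 134375479, minus strand) encodes an angiomotin that tethers YAP at junctions and in the cytoplasm. It was at 182, 178 and 178 CPM in control replicates 1 to 3 and at 208, 224 and 215 CPM in P4HA3 overexpression replicates 1 to 3. The difference was the smallest among the called genes of the list but the groups stayed apart. On the log2 scale AMOTL2 differed by 0.26 (standard error 0.05), and 0.37 with the trends removed.

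LATS2 (ENSG00000150457, chromosome 13, 20973036 to 21061586, minus strand) encodes the Hippo kinase that YAP induces as a brake on itself. It was at 31.9, 29.6 and 30.9 CPM in control replicates 1 to 3 and at 34.8, 41.8 and 39.5 CPM in P4HA3 overexpression replicates 1 to 3. All overexpressing libraries were above all control libraries. The log2 fold change was 0.33 (standard error 0.08), and 0.35 with the trends removed. LATS2 made up 65.6% to 69.4% of the summed LATS1 and LATS2 level per kilobase in control and 63.3% to 68.0% in overexpressing libraries, ranges that overlap.

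These 4 genes thus differed by similar amounts, with log2 fold changes between 0.26 for AMOTL2 and 0.36 for AXL. The canonical transcripts of the 4 and of CCN1 and CCN2 have between 50.5% and 56.3% GC, above the median of 49.3% over tested genes, and in all 6 the difference was larger with the trends removed.

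YAP1 (ENSG00000137693, chromosome 11, 102110447 to 102233424, plus strand) encodes YAP. It was at 193, 194 and 217 CPM in control replicates 1 to 3 and at 212, 250 and 234 CPM in P4HA3 overexpression replicates 1 to 3. Replicate 3 of the control was above replicate 1 of the overexpressing cells, so the groups overlapped. The log2 fold change of 0.20 (standard error 0.07) was not called, and it was 0.08 (standard error 0.04) with the trends removed, where every overexpressing library nonetheless lay above the control libraries. The call depended on the method and on the libraries, since YAP1 was called by DESeq2 (0.21), without a filter on low counts (0.215), and when control replicate 3 (0.26) or P4HA3 overexpression replicate 1 (0.27) was left out.

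WWTR1 (ENSG00000018408, chromosome 3, 149517235 to 149736714, minus strand) encodes TAZ. It was at 43.0, 43.5 and 44.8 CPM in control replicates 1 to 3 and at 40.3, 44.2 and 41.2 CPM in P4HA3 overexpression replicates 1 to 3. The groups overlapped and the log2 fold change was -0.06 (standard error 0.06) and a 95% interval of -0.19 to 0.06. With the trends removed it was -0.21 (standard error 0.05) and every overexpressing library lay below every control library, so the call for TAZ depends on that step. Exons of WWTR1-AS1 on the opposite strand share 756 bases with WWTR1, and its 15 to 27 counts per library came to at most 2.58% of those of WWTR1. The libraries were strand-specific but the strand setting of the counting is not stated.

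TEAD1 (ENSG00000187079, chromosome 11, 12674421 to 12944737, plus strand) encodes 1 of the 4 DNA-binding partners of YAP and TAZ. It was at 88.9, 105 and 116 CPM in control replicates 1 to 3 and at 110, 178 and 143 CPM in P4HA3 overexpression replicates 1 to 3. Replicate 1 of the overexpressing cells lay below replicate 3 of the control, and replicate 2 stood highest. The log2 fold change was 0.48 (standard error 0.15) and 0.29 (standard error 0.09) with the trends removed. TEAD1 was called, but not without control replicate 1 (0.38), control replicate 2 (0.49), P4HA3 overexpression replicate 2 (0.29) or P4HA3 overexpression replicate 3 (0.48), nor by DESeq2 (0.48).

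The 3 nuclear effectors have between 42.2% and 43.5% GC in their canonical transcripts, below the median of tested genes, and the log2 fold change of each was lower with the trends removed. ANKRD1, with 42.1% GC, went from 2.44 to 2.34.

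**Figure D2:**
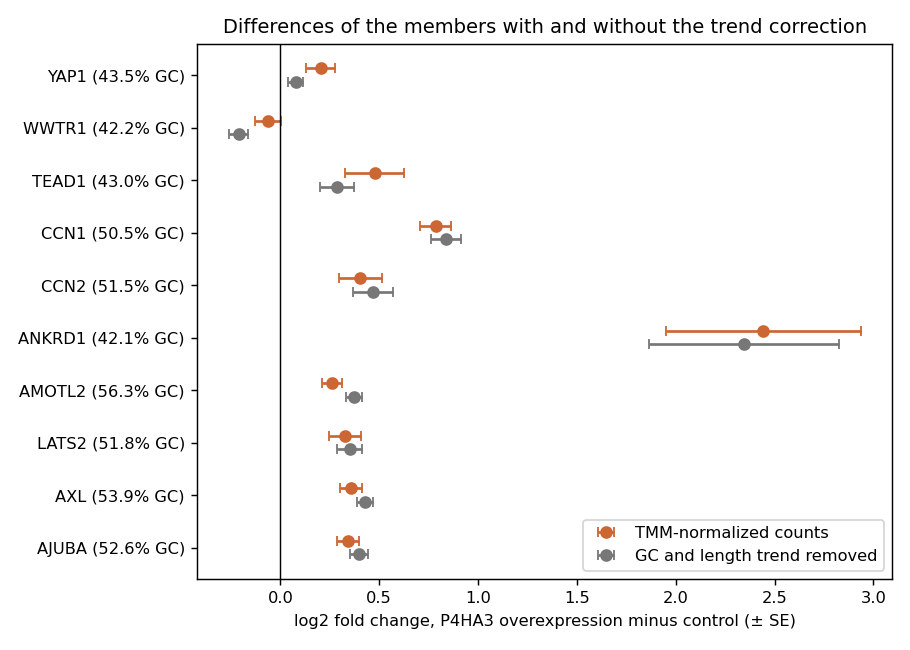
Log2 fold change of each gene, P4HA3 overexpression minus control, with its standard error (x axis), as tested on TMM-normalized counts and after removal of the GC content and transcript length trends. Genes are listed with the GC content of their canonical transcript. The 6 targets above 50% GC moved up with the correction and YAP1, WWTR1 and TEAD1 moved down, WWTR1 from -0.06 to -0.21.

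Within the overexpressing group the 10 genes shared the library with the highest value. P4HA3 overexpression replicate 2 held the highest value in 10 of 10, whereas it was the highest of the 3 in 37.6% of all tested genes. With the trends removed it was the highest in 9 of 10, against 31.3% of all genes. This was looked for after the values had been seen, the genes share these libraries, and whether it reflects the cells or the library was not tested. In the control group no library was highest throughout. The coefficient of variation among overexpressing libraries exceeded that among control libraries in 8 of the 10, the exceptions being CCN2 and ANKRD1. The share of all genes was not computed, so this cannot be read as a trait of the 10. Over all genes with enough counts, the chi-square per degree of freedom between 2 libraries was 5.17 to 7.36 among controls. Among overexpressing libraries it was 7.17 to 17.8, largest between replicates 1 and 2.

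Per kilobase of canonical transcript, the order of control levels was CCN1 (119 CPM per kb), AJUBA (42.4), YAP1 (37.3), AMOTL2 (36.9), AXL (31.1), TEAD1 (11.0), WWTR1 (8.69), LATS2 (5.56), CCN2 (4.40) and ANKRD1 (0.0622). YAP1 and AMOTL2 were the only neighbours in this order whose control libraries overlapped. In overexpressing cells AMOTL2 stood above YAP1, and YAP1 overlapped with both AMOTL2 and AXL. CCN1 was above 95.2% of all tested genes with a length in control cells, and ANKRD1 above 0.4%.

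TAZ was the minor coactivator at the RNA level. The level of YAP1 per kilobase was 4.15 to 4.51 times that of WWTR1 in control libraries and 4.91 to 5.30 times in overexpressing libraries, ranges that do not overlap. The sum of the 2 was 45.9 ± 2.69 CPM per kb in control and 51.3 ± 3.88 CPM per kb with overexpression (SD, n = 3), and its ranges did overlap.

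The TEAD family was compared because its members bind the same motif. TEAD4 gave the highest level per kilobase and did not differ detectably, at 55.9 ± 3.35 and 57.3 ± 2.91 CPM (SD, n = 3, log2 fold change 0.03, standard error 0.07, adjusted p = 0.73, edgeR), though it was called higher with the trends removed (0.26, adjusted p = 0.00306). TEAD2 fell from 52.8 ± 3.35 to 31.4 ± 2.08 CPM (SD, n = 3), which is -0.75 on the log2 scale (standard error 0.08, adjusted p = 0.000599), and -0.57 with the trends removed (adjusted p = 5.53e-05). It was called with any library left out. TEAD3 was at 29.2 ± 2.05 and 24.5 ± 0.727 CPM (SD, n = 3, log2 fold change -0.26, adjusted p = 0.0429) but at -0.06 with the trends removed (adjusted p = 0.504), and it lost its call without control replicate 1 or 2 or P4HA3 overexpression replicate 2 or 3 (-0.25 to -0.21).

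As a share of the summed TEAD1 to TEAD4 level per kilobase, TEAD2 made up 30.0% to 32.7% in control and 18.4% to 21.3% in overexpressing libraries. TEAD1 made up 12.3% to 16.4% and 16.6% to 26.1%, and TEAD4 41.6% to 43.0% and 44.3% to 50.2%. The summed level was 77.7 ± 3.14 and 71.4 ± 1.03 CPM per kb (SD, n = 3), lower in every overexpressing library than in every control library. These shares and the sum were taken from levels with the GC and length trends left in, and were not computed with them removed. The genes differ in GC content, with 43.0% in TEAD1 and 58.1% to 60.4% in TEAD2 to TEAD4, so the lower sum may follow that trend.

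**Figure D3:**
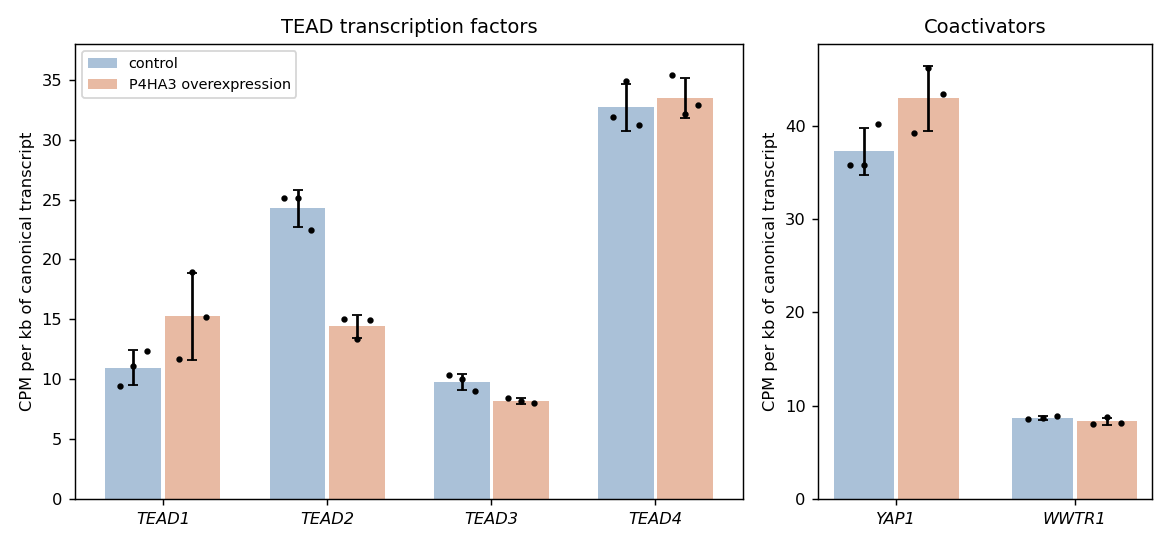
Level of the TEAD factors (left) and of the coactivators YAP1 and WWTR1 (right) in CPM per kb of canonical transcript (y axes from 0). Bars give the mean and error bars the SD of 3 libraries, and dots the libraries. TEAD2 is lower in all overexpressing libraries, TEAD4 and YAP1 are the highest of their panels, and WWTR1 overlaps between the groups.

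Other nuclear partners were few. Of 7 genes (TEAD2 to TEAD4 and the TEAD-binding cofactors VGLL1 to VGLL4), 5 were tested, 0 were called higher and 2 lower, which were TEAD2 and TEAD3. Beside this list and those below, 9.36% of all tested genes were called higher and 11.4% lower. With the trends removed these shares were 10.6% and 7.94%, and of this list 1 was called higher, TEAD4, and 1 lower, TEAD2. VGLL1 and VGLL2 had 0 counts in every library.

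A list of 16 other YAP and TAZ target genes, shared by many cancers and drawn from background knowledge, was read beside the members. Like the other gene lists here, it was chosen with earlier results of these data known. Its counts and p-values are therefore descriptions and not independent evidence for the members. All 16 were tested, and 6 were called higher and 1 lower, with 9.36% and 11.4% of all tested genes. The median log2 fold change was 0.16, or 0.07 with the trends removed. There 7 were called higher and 1 lower, with 10.6% and 7.94% of all tested genes. F3, the tissue factor that starts coagulation, rose from 127 ± 7.30 to 186 ± 26.6 CPM (SD, n = 3, log2 fold change 0.55, adjusted p = 0.005, edgeR). GADD45A, a stress and DNA damage response gene, rose by a log2 fold change of 0.53 (adjusted p = 0.0161) and MYOF, a membrane repair protein, by 0.41 (adjusted p = 0.00588). The other called genes were IGFBP3 (0.33), PTPN14 (0.32) and FOXF2 (0.27), and NUAK2, a kinase that feeds back on YAP, fell by 0.34 (adjusted p = 0.0407). With the trends removed NUAK2 was at -0.20 and not called (adjusted p = 0.154), and the gene then called lower was TGFB2, a TGF-beta ligand (-0.28, adjusted p = 0.00326). Leaving out libraries changed these counts, to 3 higher without control replicate 1 and 1 without control replicate 2, which was MYOF. Without P4HA3 overexpression replicate 1 the counts rose to 9 higher and 2 lower. Of the list 0 were called lower without control replicate 1 or 2 or P4HA3 overexpression replicate 2 or 3. CRIM1, CCDC80, NT5E, DOCK5 and the other genes of the list that were not called had log2 fold changes between -0.29 and 0.40.

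Upstream, most genes of the kinase cassette had small positive differences, which were smaller in the median with the GC and length trends removed. Of the 10 kinases and adaptors tested, 3 were called higher and 0 lower, with 9.36% and 11.4% of all tested genes. The median was 0.27, and 0.10 with the trends removed, where 1 was called higher, near the 10.6% of all tested genes. The called genes were LATS1 (log2 fold change 0.41, adjusted p = 0.0491), TAOK3, a kinase above the MST kinases (0.37, adjusted p = 0.0187), and STK3, which encodes MST2 (0.36, adjusted p = 0.0243). LATS1 and STK3 were at 0.16 and 0.17 with the trends removed and were then not called (adjusted p = 0.104 and 0.142), and TAOK3 was at 0.27 (adjusted p = 0.0115). None of the 3 was called without control replicate 1 or 2 or P4HA3 overexpression replicate 3 (0.31 to 0.40 for STK3, 0.33 to 0.38 for TAOK3), and LATS1 was not called either without control replicate 3 or P4HA3 overexpression replicate 2 (0.24 to 0.47 over the 5). STK4 (0.17, adjusted p = 0.127) and SAV1 (0.11, adjusted p = 0.221) did not pass.

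Of 12 upstream regulators at the membrane and junctions, 11 were tested, 2 were called higher and 0 lower. WWC2, a homologue of the LATS activator KIBRA, rose from 103.6 ± 7.86 to 152 ± 25.3 CPM (SD, n = 3, log2 fold change 0.55, adjusted p = 0.00866) and was at 0.38 with the trends removed. It was not called without control replicate 2 (0.52). FRMD6, a FERM protein at junctions, was at 0.36 (adjusted p = 0.0165) and at 0.19 with the trends removed, and lost its call without control replicate 1 or 2 or P4HA3 overexpression replicate 3 (0.32 to 0.38). NF2, which encodes merlin, was at -0.09 (adjusted p = 0.24). The 9 inhibitors of the Hippo kinases included the STRIPAK phosphatase subunits and the AJUBA relatives LIMD1 and WTIP. Of the 9, 1 was called higher, near the 9.36% of all tested genes, the scaffold STRN (0.37, adjusted p = 0.0382). STRN was at 0.06 with the trends removed (adjusted p = 0.484). In the uncorrected fits STRN was not called without control replicate 1 or 2 or P4HA3 overexpression replicate 2 or 3 (0.26 to 0.37).

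CCN1, CCN2 and ANKRD1 are also known to respond to MRTF and SRF, the actin-sensing transcription factors, so 16 other genes of that programme were read beside them. Of the 15 tested, 2 were called higher and 0 lower (9.36% and 11.4% of all tested genes), with a median of 0.03. TAGLN, the actin-binding protein transgelin, rose from 8.84 ± 0.441 to 17.2 ± 0.613 CPM (SD, n = 3, log2 fold change 0.96, adjusted p = 0.000436), and TPM1, a tropomyosin, from 50.4 ± 1.87 to 74.5 ± 2.69 CPM (log2 fold change 0.57, adjusted p = 0.000668). Both were called with any library left out. The count depended on the GC and length correction, with which 9 were called higher (10.6% of all tested genes) and the median was 0.19.

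Paralogues and ligands of the targets were read beside them. Of 9 genes, 6 were tested, 0 were called higher and 2 lower, and with the trends removed 1 was called higher and 2 lower. TYRO3, the TAM receptor next to AXL, fell from 62.8 ± 3.99 to 46.0 ± 3.45 CPM (SD, n = 3, log2 fold change -0.45, adjusted p = 0.00494), called with any library left out and at -0.44 with the trends removed. GAS6, the ligand of AXL, was at 62.9 ± 4.35 and 53.2 ± 2.25 CPM (SD, n = 3, log2 fold change -0.24, adjusted p = 0.0348), but at 0.01 with the trends removed (adjusted p = 0.867), and its call was lost without control replicate 1 or 2 or P4HA3 overexpression replicate 2 or 3 (-0.23 to -0.20). MERTK, the third TAM receptor, was at -0.15 (adjusted p = 0.687). CCN3 and CCN5 were at -0.19 and 0.12 and did not pass, but CCN5 was at 0.39 and called higher with the trends removed (adjusted p = 0.044). PROS1, the other ligand, was at -0.17 and not called, but was called lower with the trends removed (-0.34, adjusted p = 0.00266).

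The genes whose pattern lay nearest to CCN1 and CCN2 were sought among 10640 genes at 5 CPM or more on average, by the root mean square distance of log2 CPM centred over the 6 libraries. Nearest to CCN1 were CPA4 (distance 0.04, log2 fold change 0.85), ZNF469 (0.06, 0.68) and CAV1 (0.08, 0.69), which encode a carboxypeptidase, a zinc finger protein tied to collagen fibre assembly and caveolin, the coat protein of caveolae. Nearest to CCN2 were MRPL1 (0.06, 0.44), ENOX2 (0.07, 0.30) and ARHGAP19 (0.07, 0.38). A small distance over 6 libraries in 2 groups is a description of these libraries.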

How the data were processed

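RNA-seq was performed on 3 control and 3 P4HA3-overexpressing libraries of SiHa PR cells. According to the supplementary methods, the authors made stranded paired-end dUTP libraries from poly-A RNA, aligned the reads to GRCh38 with STAR and counted them per gene with HTSeq. The submitters' processing notes name HISAT2 instead, so the aligner is uncertain. Tool versions, the strand setting and the treatment of multiply mapped reads are not given in the sources used here. The deposited values are raw counts per Ensembl gene, without normalization.

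The tests used edgeR 4.0.16 (limma 3.58.1) in R 4.3.3: filterByExpr (minimum count 10), TMM, and the two-sided quasi-likelihood test (glmQLFit, glmQLFTest) with Benjamini-Hochberg adjustment over 15130 genes. A gene was called at an adjusted p under 0.05. Fold changes are unshrunken, standard errors are the log2 fold change divided by the root of F, and expression is TMM-normalized CPM. Total counts of 21773488 to 24939948 leave genes with few counts, such as ANKRD1, limited by counting error.

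Symbols, positions, GC content and lengths of canonical transcripts came from GENCODE v44 (GRCh38), which matched 60463 of 60664 identifiers, and promoter windows from RefSeq. The GC and length trends of each library were fitted with mgcv 1.9.3 and entered as offsets. The other alternatives were DESeq2 1.42.0, RLE normalization, other filters, the replicate number as a block and each library left out.

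The members and gene lists were chosen with earlier results of these data known. Named were the 10 members, P4HA3, TEAD2, TEAD3, TEAD4, LATS1, STK3, STK4, SAV1, NF2 and GAS6, the up to 3 largest called rises and falls of each list with a mean of at least 1 CPM, and the 3 genes nearest to CCN1 and to CCN2. Other genes were named after their values were seen. No protein sequences were used here.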

Additional observations from a re-analysis of the deposited data

How the results depend on the processing

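All 10 members kept the direction of their log2 fold change in every alternative that gave them a value. With any library left out, 3 to 9 members were called higher. Over the same fits 163 to 2814 genes were called higher and 371 to 2716 lower, from 1416 and 1731 with all libraries. The other targets called higher numbered 1 to 9 and those called lower 0 to 2, and the kinase cassette genes called higher 0 to 8. Without a filter for low counts 2384 genes were called higher, 0 of the other targets lower and 6 cassette genes higher. DESeq2 called 0 of the other targets lower and gave ANKRD1 no adjusted p. With the GC and length trends removed 1 member was called lower and 1 cassette gene higher, and the calls over all genes were 1603 higher and 1202 lower. The cause of these changes was not tested. ANKRD1 had no value where every library needed 10 counts.

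The libraries share only replicate numbers, and the correlations of deviations between same-numbered libraries were 0.25, -0.05 and 0.03. With the replicate block 2138 genes and 6 cassette genes were called higher and YAP1 was called (0.20). With the replicate block and the trends removed 2136 genes were called higher and 1 member lower, WWTR1, as were 11.0% of all genes.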
